A study of Rattus norvegicus with 15 samples.

Results

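Complex I (NADH:ubiquinone oxidoreductase) was followed through the nuclear genes for its subunits and for the Ndufaf assembly factors. Members were the genes whose symbol began with Nduf followed by a, b, c, s, v, ab or af and a number: 51 of the 37991 genes listed. Of these, 44 were subunit symbols and 7 were assembly factors. The subunit symbols comprised 7 core subunits, 34 accessory subunits and 3 symbols of pseudogenes (Ndufs5-ps1, Ndufv3-ps1 and Ndufb4-ps1). Classes follow the symbol: the table also annotates the entries of Ndufa13 and Ndufb4l1 as pseudogenes and that of Ndufb1 as a long noncoding RNA, and these are counted here as accessory subunits. The 7 mitochondrially encoded core subunits (the ND genes) lie outside this naming rule and were read as a separate list.

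Complex I takes electrons from NADH and passes them through a flavin and a chain of iron-sulfur clusters to ubiquinone, and it pumps protons across the inner mitochondrial membrane. The core subunits carry the catalysis, the accessory subunits surround and stabilise them, and the assembly factors help to build the complex and are not part of the finished enzyme. Working skeletal muscle depends on this enzyme for much of its oxidative ATP supply, and its subunits are encoded partly in the nucleus and partly in mitochondrial DNA.

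RNA was sequenced from the multifidus muscle of wild-type male Sprague Dawley rats, 12 weeks old and weighing 340 to 370 g. Atrophy of this muscle was induced by hemilaminectomy with ligation of the left L5 spinal nerve. The groups were unoperated Control (2 libraries), Surgery (2), surgery with plasma-derived mitochondria (pMT, 4), surgery with pMT and vitamin D (pMT/VitD, 4) and surgery with vitamin D (VitD, 3). The pMT came from human blood plasma and was given as 25 µg in 100 µL at each site, 50 µg per rat; the vitamin D was cholecalciferol, 150 µg per site and 300 µg in total. Injection on day 14 is given for the pMT group, and collection on day 28 for Control, Surgery and pMT; for VitD and pMT/VitD the days are not given in the sources used here. Because the injected mitochondria were human and the alignment was to the rat genome, RNA of donor origin cannot be told apart from rat RNA in these counts.

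Total counts per library were 68592996 and 64352162 in Control, 69303658 and 65642999 in Surgery, 71377227, 61902001 and 70807511 in VitD, 57208844, 73557878, 66595547 and 63128802 in pMT, and 54525121, 62249505, 53648931 and 52342134 in pMT/VitD. Of the 37991 genes, 17201 had enough counts to test, among them 50 of the 51 members. Ndufb4l1, named as like the accessory subunit Ndufb4, had 0 or 1 counts in each library and was not tested. The muscle label fitted its markers. The 9 skeletal muscle fibre genes were led by skeletal actin Acta1, at a mean of 51656 on the TPM scale (transcripts scaled for gene length and library size), and none of the 9 was at 0.

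2 libraries stood apart from their groups. Over the 3129 most abundant genes, the standard deviation of the log2 ratio between pMT 4 and each of pMT 1 to 3 was 0.37 to 0.55, but only 0.18 to 0.31 between pMT 4 and each of pMT/VitD 1 to 3. For pMT/VitD 4 it was 0.37 to 0.48 against pMT/VitD 1 to 3, and 0.19 to 0.25 against pMT 1 to 3. Each of the 2 libraries thus sat closer to the other injected group than to its own. The labels were kept. For comparisons that include pMT or pMT/VitD, member counts or medians are given with and without these 2 libraries. They were chosen for leaving out because of where their expression sat, so values without them are not independent of that choice.

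The subunit genes were among the abundant transcripts of this muscle. On the length-corrected TPM scale, 36 of the 41 core and accessory subunits had a mean of at least 100 over the 15 libraries, where the median of all genes tested was 3.11. Among 6 core subunits the order of mean TPM was Ndufv2 609.99, Ndufs7 355, Ndufs3 347, Ndufs8 245, Ndufv1 237 and Ndufs1 106. Ndufv1 carries the flavin that accepts electrons from NADH, Ndufv2 and Ndufs1 hold iron-sulfur clusters of the same arm, and Ndufs7 and Ndufs8 hold clusters nearer to ubiquinone. The accessory subunits had a median TPM of 290.3 with Ndufb9 highest at 871. The assembly factors had a median of 22.0, from 6.76 for the methyltransferase Ndufaf7 to 42.4 for Ndufaf3. Each of the 7 assembly factors thus lay below each of the 7 core subunits.

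5 accessory symbols had mean TPM under 30: Ndufa10l1 at 26.97, Ndufa13 at 12.2, Ndufa4l2 at 7.95, Ndufs6 at 5.65 and Ndufb4l1 near 0. For Ndufa13, annotated as a pseudogene, and Ndufs6 the low level went with a second gene entry of nearly the same name. An Ndufa13-like entry (LOC100911483) had a mean TPM of 481, an Ndufs6 entry (LOC679739) had 282 and an Ndufs6-like entry (LOC100912599) had 70.3. Such pairs may share reads, and how reads matching more than 1 place were divided is not given in the sources used here. The values of Ndufa13 and Ndufs6 are therefore uncertain, as are those of Ndufa1, Ndufa12 and Ndufb4, which have such entries at mean TPM 126, 6.73 and 5.27. These entries were searched for after the values had been seen. Ndufa1 and its second entry (LOC108348144) had nearly equal counts in each library, from 1977 to 4498 and from 1991 to 4513. Whether these were the same reads divided between the entries was not tested.

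Relative to other genes, subunit RNA moved together across libraries, and it did so with gene length. CPM values are counts relative to library size, scaled by the trimmed mean of M-values (TMM), and the mean log2 CPM over the 40 tested core and accessory subunits was 6.92 and 6.87 in Control, 6.76 and 6.71 in Surgery, 6.70, 6.66 and 6.66 in VitD, 6.90, 6.69, 6.52 and 7.34 in pMT, and 7.39, 7.43, 7.15 and 6.74 in pMT/VitD. The 4 highest libraries were pMT/VitD 2, pMT/VitD 1, pMT 4 and pMT/VitD 3; the lowest was pMT 3. The number of the 40 subunits above their own mean over the 15 libraries was 26 and 17 in Control, 3 and 1 in Surgery, 4, 1 and 1 in VitD, 20, 3, 1 and 37 in pMT, and 39, 40, 39 and 5 in pMT/VitD. In each of pMT 4 and pMT/VitD 1 to 3, at least 37 of 40 subunits were therefore high, though not always the same ones. At most 5 of 40 were high in each Surgery and VitD library and in each of pMT 2, pMT 3 and pMT/VitD 4.

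The trend of expression with gene length differed between these libraries. The Spearman correlation, across genes, of relative gene length with the deviation of log2 CPM from the mean of all libraries was 0.048 and 0.130 in Control, 0.05 and 0.103 in Surgery, -0.032, 0.166 and 0.289 in VitD, 0.018, 0.361, 0.453 and -0.322 in pMT, and -0.394, -0.388, -0.165 and 0.154 in pMT/VitD. The 4 libraries with the most negative trend, in which shorter genes stood higher, were the 4 with the highest subunit level. In pMT 3, with the most positive trend, the subunit level was lowest. Subunit genes are short: their length relative to the typical tested gene had a median of 0.422 for the core and 0.246 for the accessory subunits, against 0.574 for the assembly factors. Whether the trend came from RNA quality, library preparation or the tissue was not tested, and the deposited table holds no measure of RNA integrity.

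Removing each library's own length trend brought the libraries closer. The mean log2 CPM of the 40 subunits became 6.90 and 6.91 in Control, 6.77 and 6.76 in Surgery, 6.68, 6.76 and 6.81 in VitD, 6.92, 6.87, 6.88 and 7.04 in pMT, and 7.06, 7.07, 7.02 and 6.86 in pMT/VitD. Every one of the 8 libraries injected with pMT then stood above every one of the 5 operated libraries without pMT, and the Control libraries lay within the range of the injected ones. The median standard deviation of log2 CPM over the 15 libraries was 0.34 before and 0.16 after for accessory subunits, and 0.28 and 0.15 for core subunits. For assembly factors it was 0.19 before and 0.18 after, and for all genes tested 0.31 and 0.28.

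**Figure D1:**
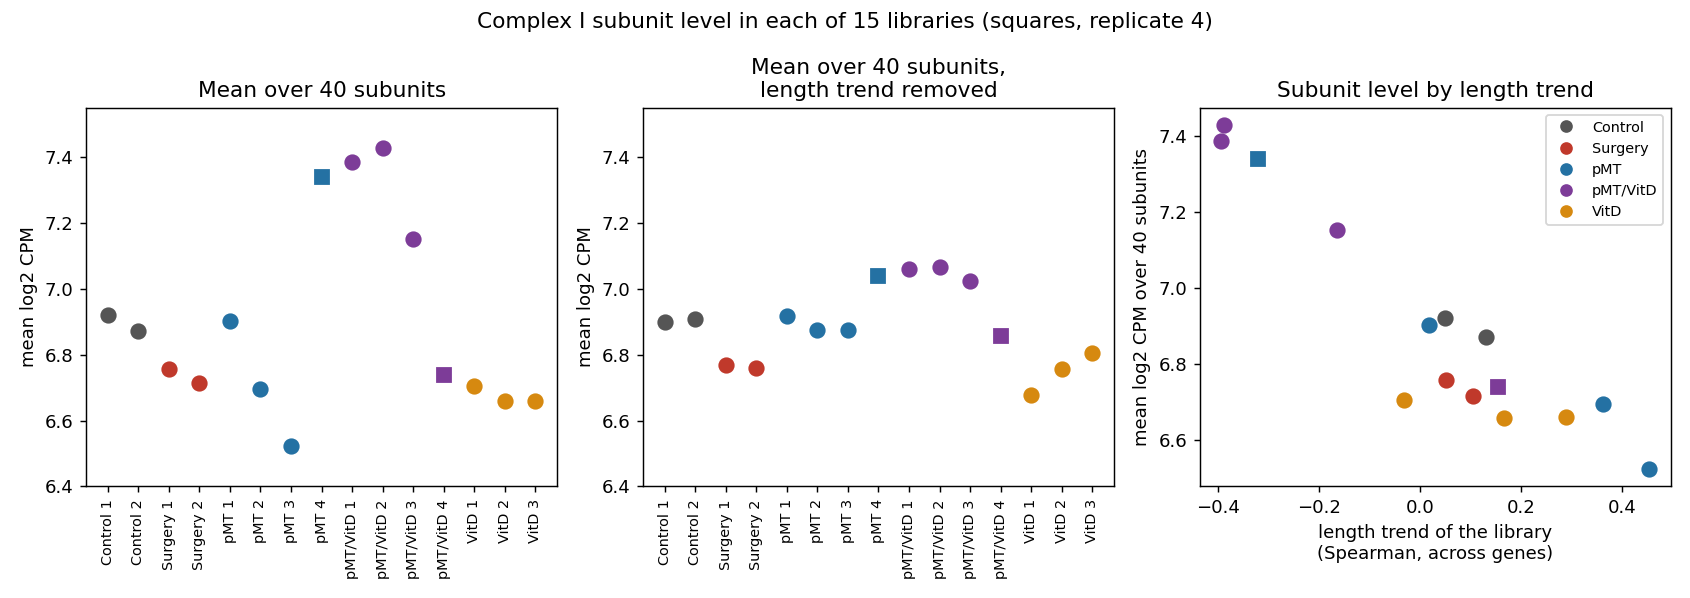
Mean log2 CPM of the 40 tested core and accessory subunits in each library, before and after the length trend of each library was removed, and the first of these against the length trend. Squares mark replicate 4 of the pMT and pMT/VitD groups.

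Among single subunits the spread between libraries followed the same line. Ndufb1, a small membrane-arm subunit, had the largest standard deviation of log2 CPM among core and accessory subunits (0.47, and 0.21 after the length trend was removed). Ndufs1, the largest subunit of the enzyme, had the smallest (0.11). In CPM, Ndufs1 was 191 and 200.1 in Control, 181 and 180.4 in Surgery, 159, 194 and 196 in VitD, 199.5, 209, 214 and 181 in pMT, and 198, 214, 182 and 201 in pMT/VitD. Both Surgery libraries lay below every Control, pMT and pMT/VitD library and inside the VitD range. The other groups overlapped, and VitD 1 was lowest. The mean log2 CPM of the assembly factors was 4.11 and 4.28 in Control, 4.12 and 4.14 in Surgery, 4.16, 4.17 and 4.15 in VitD, 4.20, 4.10, 4.09 and 4.31 in pMT, and 4.50, 4.55, 4.19 and 4.21 in pMT/VitD. It was highest in pMT/VitD 2 and pMT/VitD 1. Next came pMT 4 at 4.31, close to Control 2 at 4.28, and the remaining libraries reached down to 4.09.

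On the TPM scale the order of the groups was different. The TPM values summed over the subunits were 11833 and 11506 in Control, 12839.9 and 12518 in Surgery, 12737, 12089 and 12081 in VitD, 13112, 12298, 11524 and 13311 in pMT, and 13962, 14839, 12663 and 11699 in pMT/VitD. Both Surgery and all 3 VitD libraries stood above both Control libraries on this scale, whereas on the mean TMM-scaled log2 CPM all 5 stood below. TPM as a share depends on the other abundant genes, and fold changes below are all from TMM-scaled counts.

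The broadest comparison set the 8 pMT-injected libraries (pMT and pMT/VitD, weighted equally) against the 5 operated libraries without pMT (Surgery and VitD, weighted equally). Genes were called at an adjusted p (Benjamini-Hochberg over all genes tested) below 0.05 in the edgeR quasi-likelihood test. Of the 50 members tested, 12 were called, or 24%, beside 23.3% of all genes tested, so the share of members called was near the background. In direction, 11 members were called higher, beside 10% of genes, and 1 was called lower, beside 13.3% of genes. All 40 subunits had a positive fold change, with a median log2 of 0.35 beside 0.01 for all genes. 27 of the 40 passed p under 0.05 without adjustment, and 9 were called. Adjusted p-values here measure spread between samples, taken as separate animals because the labels do not say otherwise. In bulk tissue, fewer cells of a type and less RNA per cell cannot be told apart.

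Of the 7 core subunits, 3 were called, beside 23.3% of all genes tested, and each belongs to the stretch of the peripheral arm next to ubiquinone. Ndufs7 CPM was 222 and 172 in Control, 176 and 165 in Surgery, 135, 152 and 160.5 in VitD, 207, 190.1, 172 and 244 in pMT, and 259.7, 270.5, 265 and 198 in pMT/VitD. 7 of the 8 injected libraries stood above the highest of the 5 without pMT, pMT 3 being the exception, and Control 1 lay among the injected values (log2 fold change 0.49, standard error 0.11, adjusted p 0.00664, edgeR quasi-likelihood). Ndufs8 CPM was 159 and 134 in Control, 128 and 123 in Surgery, 129, 117 and 116 in VitD, 143, 136, 119.8 and 191 in pMT, and 202, 200.1, 196 and 144 in pMT/VitD. Again only pMT 3 of the 8 failed to exceed all 5 libraries without pMT (log2 fold change 0.43, standard error 0.12, adjusted p 0.0207, edgeR quasi-likelihood). Ndufs3, a scaffold subunit of the same arm, had CPM of 301 and 288 in Control, 231 and 235 in Surgery, 208, 221 and 232 in VitD, 285, 247, 222 and 359 in pMT, and 362, 364, 332 and 275 in pMT/VitD. It showed the same order, with pMT 3 inside the range of the libraries without pMT and both Control libraries inside that of the injected ones (log2 fold change 0.43, standard error 0.12, adjusted p 0.0171, edgeR quasi-likelihood).

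Ndufv1, Ndufv2 and Ndufs1 were not called by edgeR quasi-likelihood over 15 libraries. Limma voom called all 3, beside 51.3% of genes in either direction. Ndufv2 was also called with the length trend removed (beside 29.1% of genes) and without the replicate-4 libraries (28.5%). Ndufv1 and Ndufv2 were called with both changes (31.4%). Ndufv1 CPM was 262 and 232 in Control, 254 and 245 in Surgery, 239, 235 and 230.3 in VitD, 264, 241, 235 and 319.7 in pMT, and 324, 308, 308 and 236 in pMT/VitD. Ndufv2 CPM was 397 and 356 in Control, 345 and 355 in Surgery, 339, 342 and 337 in VitD, 405, 345, 286 and 531 in pMT, and 532, 513, 472 and 351 in pMT/VitD. In both genes pMT 4 and pMT/VitD 1 to 3 were high while pMT 2 and pMT/VitD 4 lay near the Surgery and VitD libraries. For Ndufv1 pMT 3 also lay near them, and for Ndufv2 it lay below all of them. The log2 fold changes, with edgeR quasi-likelihood adjusted p, were 0.21 for Ndufv1 (adjusted p 0.159), 0.31 for Ndufv2 (adjusted p 0.127) and 0.14 for Ndufs1 (adjusted p 0.235). Mean TPM was lower in injected libraries than in operated libraries without pMT: 234.7 and 251.3 for Ndufv1, 617 and 623 for Ndufv2, and 103.4 and 113.4 for Ndufs1. With library size alone, which lowered the median of all genes, the fold changes of Ndufv1 and Ndufs1 were negative.

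**Figure D2:**
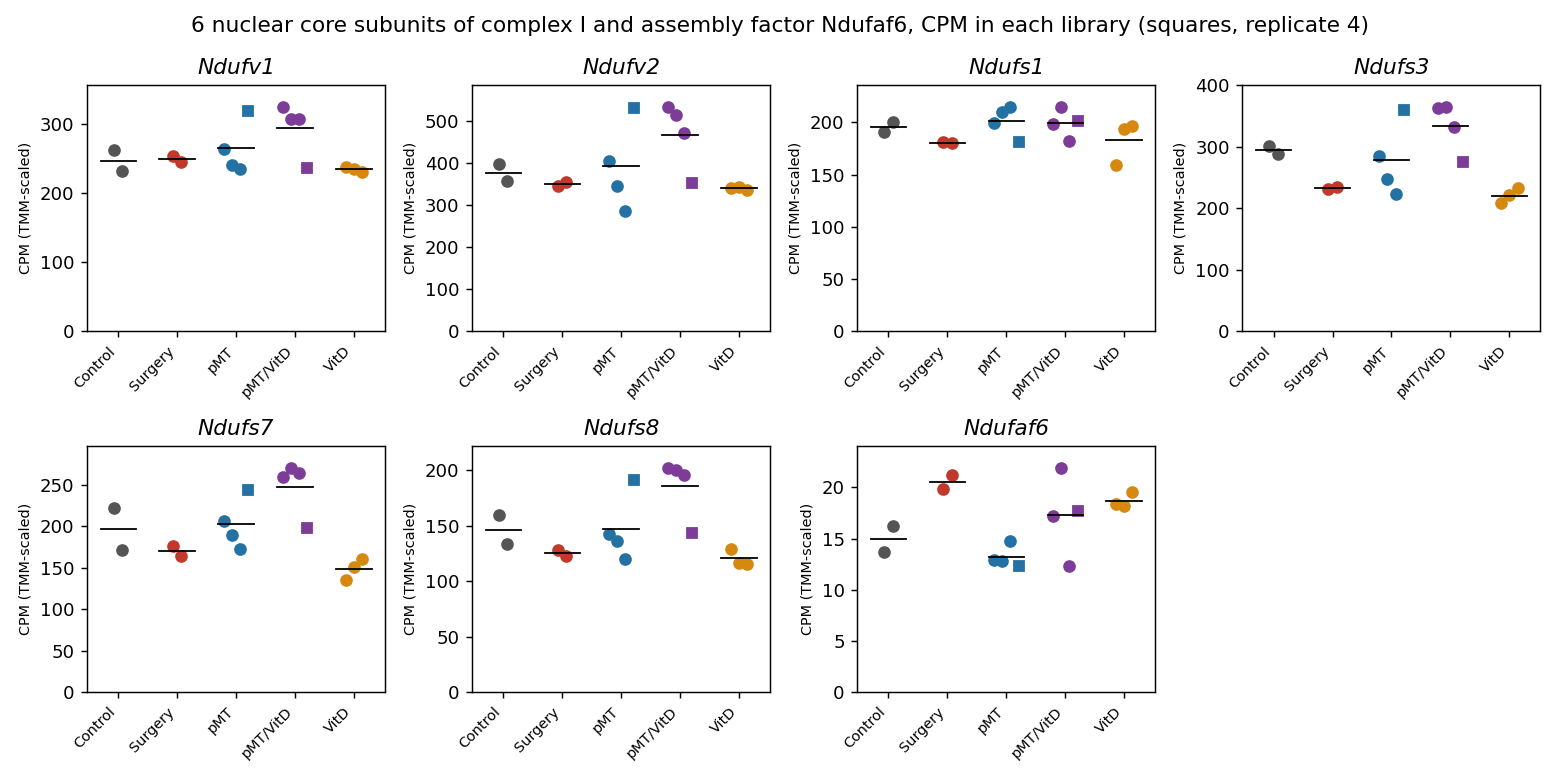
TMM-scaled CPM of 6 nuclear core subunits and of the assembly factor Ndufaf6 in each library. Horizontal lines are group means and squares mark replicate 4.

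Of the 33 tested accessory subunits, edgeR quasi-likelihood called 6, each higher, beside 10% of all genes tested called higher and 23.3% called in either direction. Ndufb11, a membrane-arm subunit encoded on the X chromosome, had CPM of 263 and 256 in Control, 199 and 198 in Surgery, 167, 183 and 204 in VitD, 241, 208, 183 and 349.95 in pMT, and 386, 402, 323 and 230.00 in pMT/VitD. The highest were pMT/VitD 1 and 2, and 7 of 8 injected libraries exceeded all 5 without pMT (log2 fold change 0.58, standard error 0.16, adjusted p 0.02, edgeR quasi-likelihood). Ndufb4, a further membrane-arm subunit, had CPM of 212 and 240.2 in Control, 156 and 154 in Surgery, 139, 156 and 157 in VitD, 198, 162, 139.5 and 285 in pMT, and 299.7, 283, 273 and 177 in pMT/VitD. It was low in Surgery, VitD and pMT 3, and high in Control as well as in most injected libraries (log2 fold change 0.56, standard error 0.17, adjusted p 0.0264, edgeR quasi-likelihood). Ndufa8, a subunit on the intermembrane side of the enzyme, had CPM of 148 and 147 in Control, 134 and 125 in Surgery, 126, 123 and 122 in VitD, 159.95, 144, 119 and 200.02 in pMT, and 214, 214, 182 and 139 in pMT/VitD. Its lowest library was pMT 3, and the 7 other injected libraries exceeded all 5 without pMT (log2 fold change 0.43, standard error 0.13, adjusted p 0.0265, edgeR quasi-likelihood).

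The other 3 accessory calls were smaller. Ndufa10 CPM was 161 and 174 in Control, 146 and 143 in Surgery, 126, 141 and 151 in VitD, 165, 158, 149 and 156 in pMT, and 181, 194, 163 and 168 in pMT/VitD. It was lowest in VitD 1 and highest in pMT/VitD 2 and 1, and 7 of 8 injected libraries exceeded all 5 without pMT (log2 fold change 0.23, standard error 0.076, adjusted p 0.0421, edgeR quasi-likelihood). Ndufa10l1 CPM was 30.8 and 31.3 in Control, 26.9 and 26.7 in Surgery, 21.6, 26.7 and 25.9 in VitD, 28.3, 29.6, 27.8 and 26.99 in pMT, and 33.7, 35.00, 29.4 and 30.9 in pMT/VitD. It was the 1 member of 50 in which all 8 injected libraries lay above all 5 without pMT, beside 4.24% of genes tested, with a small margin (log2 fold change 0.23, standard error 0.07, adjusted p 0.0299, edgeR quasi-likelihood). With the length trend removed, 14 of the 50 members were separated in this way, beside 7.23% of genes. Like Ndufa10, Ndufa10l1 was lowest in VitD 1 and highest in pMT/VitD 2 and 1. Genes of such similar names may share reads, so the calls of Ndufa10 and Ndufa10l1 may not be separate, which was not tested. Ndufb6 CPM was 95.2 and 87.3 in Control, 77.8 and 76.2 in Surgery, 68.4, 69.5 and 74.3 in VitD, 92.1, 76.98, 66.3 and 111 in pMT, and 111, 125, 104 and 81.2 in pMT/VitD. Here 6 of 8 injected libraries exceeded the 5 without pMT (log2 fold change 0.37, standard error 0.13, adjusted p 0.045, edgeR quasi-likelihood). The sign of Ndufa10 and Ndufa10l1 depended on the scaling. With library size alone both fold changes were -0.01. That scaling lowered the median of all genes by about as much as these fold changes, so the turn in sign is not particular to them. The mean TPM of injected libraries was below that of the 5 without pMT, at 106 and 110.5 for Ndufa10 and 26.6 and 27.5 for Ndufa10l1.

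Among accessory subunits not called, the log2 fold changes ran down to 0.02 for Ndufa4l2 (adjusted p 0.895) in the edgeR quasi-likelihood test. Ndufa4l2 is a paralog of Ndufa4, and Ndufa4 itself, at mean TPM 746 and now mostly assigned to complex IV, had 0.32 (adjusted p 0.148). The acyl carrier protein Ndufab1, shared with mitochondrial fatty acid synthesis, had 0.39 (edgeR quasi-likelihood adjusted p 0.113). Ndufb1, with the widest spread, had 0.52 (edgeR quasi-likelihood adjusted p 0.103). None of the 3 symbols ending in -ps1 was called by edgeR quasi-likelihood, while limma voom called Ndufb4-ps1 and Ndufv3-ps1, beside 51.3% of genes.

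The 7 assembly factors did not move as 1 group: 2 were called higher and 1 lower by edgeR quasi-likelihood, beside 10% and 13.3% of all genes tested. Their median log2 fold change was 0.21. Ndufaf1, which acts on an intermediate of the membrane arm, had CPM of 13.2 and 14.02 in Control, 10.9 and 10.6 in Surgery, 11.02, 12.4 and 12.5 in VitD, 13.6, 14.04, 15.2 and 13.6 in pMT, and 14.9, 15.2, 10.7 and 14.9 in pMT/VitD. 7 of 8 injected libraries exceeded all 5 without pMT, pMT/VitD 3 being low (log2 fold change 0.31, standard error 0.089, adjusted p 0.0233, edgeR quasi-likelihood). Ndufaf3, an early factor that works together with Ndufaf4, had CPM of 49.1 and 45.9 in Control, 40.9 and 40.1 in Surgery, 35.9, 39.02 and 40.96 in VitD, 48.02, 41.6, 38.4 and 53.5 in pMT, and 58.6, 58.3, 54.2 and 43.2 in pMT/VitD. Only pMT 3 of the injected libraries lay inside the range of the 5 without pMT (log2 fold change 0.32, standard error 0.096, adjusted p 0.0286, edgeR quasi-likelihood). Ndufaf6, needed early in assembly, had CPM of 13.7 and 16.2 in Control, 19.8 and 21.2 in Surgery, 18.4, 18.2 and 19.6 in VitD, 12.96, 12.8, 14.8 and 12.4 in pMT, and 17.2, 21.9, 12.4 and 17.7 in pMT/VitD. It ran the other way: 7 of 8 injected libraries lay below all 5 without pMT, the exception being pMT/VitD 2 with the highest value of all (log2 fold change -0.37, standard error 0.11, adjusted p 0.0243, edgeR quasi-likelihood).

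The other 4 assembly factors were not called by edgeR quasi-likelihood. Limma voom called Ndufaf2 and Ndufaf4, beside 51.3% of genes, and Ndufaf4 was also called with the length trend removed, beside 29.1%. Ndufaf2 CPM was 10.1 and 13.9 in Control, 11.1 and 12.3 in Surgery, 9.41, 11.5 and 11.05 in VitD, 12.99, 11.9, 9.11 and 14.96 in pMT, and 17.98, 17.6, 15.6 and 10.8 in pMT/VitD. Ndufaf4 CPM was 15.95 and 19.8 in Control, 14.3 and 16.5 in Surgery, 20.4, 17.9 and 16.8 in VitD, 19.8, 17.6, 19.03 and 20.7 in pMT, and 20.3, 21.99, 17.9 and 18.4 in pMT/VitD. For Ndufaf2, the highest values were again in pMT/VitD 1 to 3 and pMT 4, and the groups overlapped in both genes. Ndufaf5, a hydroxylase acting on Ndufs7, and Ndufaf7, a methyltransferase, differed least. Their CPM ranged over the 15 libraries from 24.2 to 35.6 and from 10.4 to 15.3. The log2 fold changes, with edgeR quasi-likelihood adjusted p, were 0.30 for Ndufaf2 (adjusted p 0.144), 0.21 for Ndufaf4 (adjusted p 0.0894), 0.09 for Ndufaf5 (adjusted p 0.548) and 0.07 for Ndufaf7 (adjusted p 0.615).

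**Figure D3:**
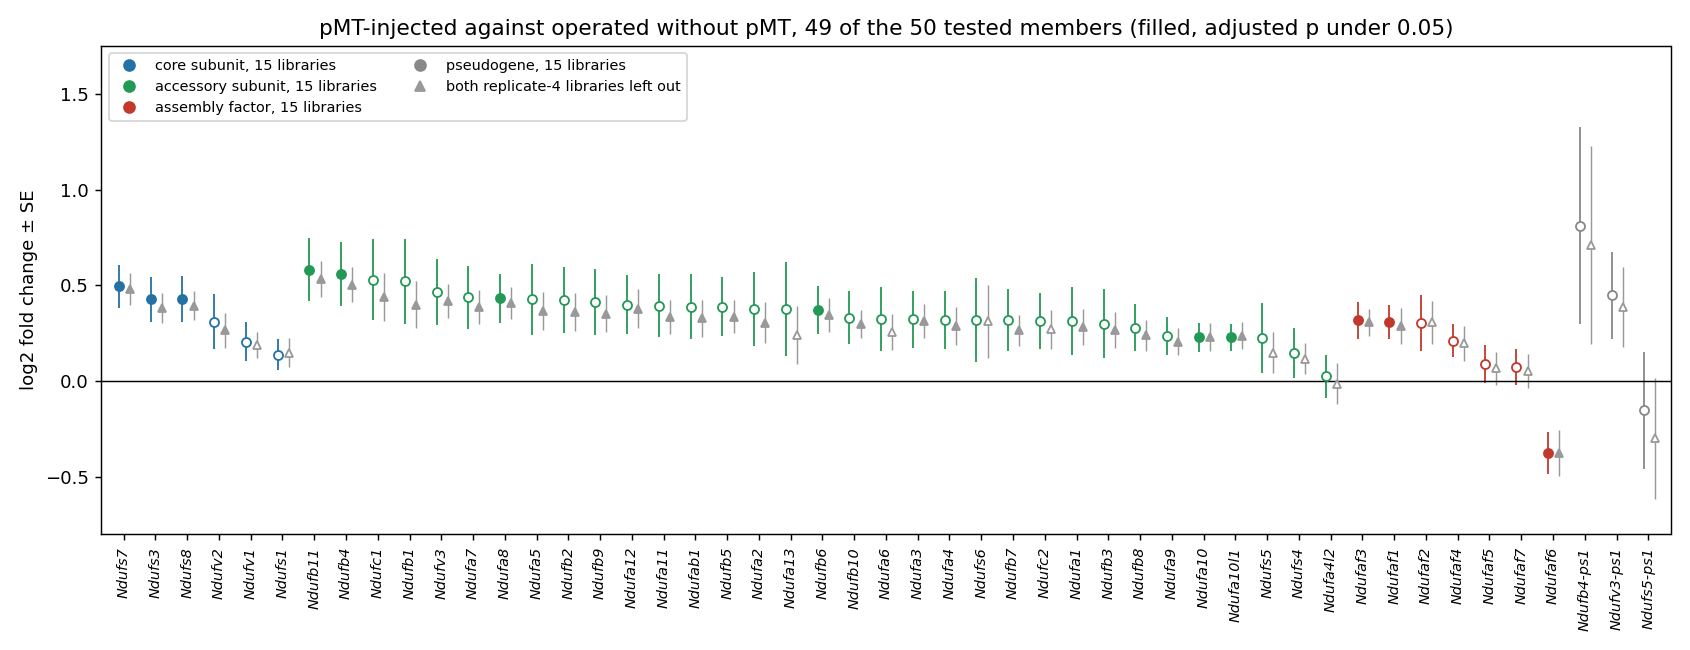
Log2 fold change with standard error of 49 of the 50 tested members between pMT-injected libraries and operated libraries without pMT, by class, with 15 libraries and without replicate 4 of pMT and pMT/VitD. Filled symbols are below an adjusted p of 0.05.

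How many members were called in this comparison depended on single libraries and on the method. Shares of genes here and below count calls in either direction unless the share itself names higher or lower. Without Surgery 1 or without Surgery 2, 1 member was called, beside 11.6% and 11.3% of genes, Surgery then having 1 library. The count was 6 without VitD 1 (17.9% of genes), 24 without pMT 3 (23.7%) and 25 without pMT/VitD 4 (26.9%). Without both replicate-4 libraries 34 members were called (33 higher, 1 lower), beside 28.5% of genes, and the 12 first called were all among them. With each library's length trend removed, 28 members were called, beside 29.1% of genes: 27 higher, beside 15.1% of genes called higher, and 1 lower. With both changes, a combination chosen after seeing the data, 30 members were called (29 higher), beside 31.4% of genes. DESeq2 called 17, beside 27.6%, and limma voom with quality weights called 45, beside 51.3%. With the replicate number as a block, 1 member was called, beside 14% of genes, although these numbers did not pair the libraries. Scaling by library size alone, which moved the median of all genes by -0.23, left 2 members called, beside 31.8% of genes, and the median of the assembly factors then turned from 0.21 to -0.04.

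Single calls also depended on 1 library. Ndufs7 stayed below an adjusted p of 0.05 in each of the 15 fits that left out 1 library. Ndufs3, Ndufs8, Ndufb11 and Ndufaf6 lost their call without Surgery 1 (log2 0.42, 0.44, 0.58 and -0.40) and without Surgery 2 (0.43, 0.41, 0.58 and -0.35). Ndufb4 and Ndufaf1 lost it without either Surgery library (0.56 and 0.55; 0.32 and 0.30) and without VitD 1 (0.53 and 0.28), and Ndufa8 without either Surgery library (0.46 and 0.41) or VitD 2 (0.43). Ndufaf3 and Ndufa10l1 kept it in 8 of 15 fits, Ndufa10 in 5 and Ndufb6 in 3, with ranges of 0.27 to 0.35, 0.18 to 0.26, 0.20 to 0.26 and 0.30 to 0.43. Calls gained among the members named here were Ndufv2 (0.37) and Ndufb1 (0.61) without pMT 3, Ndufaf2 (0.36) without pMT/VitD 4, and Ndufb9, Ndufa12 and Ndufab1 without pMT 3 (0.48, 0.47 and 0.46) or pMT/VitD 4 (0.48, 0.46 and 0.45).

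Most subunits were lower in Surgery than in Control, but none was called by edgeR quasi-likelihood. In Surgery against Control, 36 of the 40 subunits had negative fold changes, with a median log2 of -0.19 beside -0.01 for all genes and -0.13 for the 7 core subunits. Scaling by library size alone turned the subunit medians of this comparison and of VitD against Control positive. It raised the median of all genes by more than the size of those medians. The edgeR quasi-likelihood test called 0 of the 50 members, beside 1.55% of genes tested, with 2 at unadjusted p under 0.05. DESeq2 called 0, beside 5.94% of genes. Limma voom with quality weights called 7 (6 lower), beside 28.7% of genes. With only the 4 libraries of these groups, the edgeR quasi-likelihood fit called 17 of 49 (16 lower), beside 32.4%, and the edgeR exact test 19 of 49 (18 lower), beside 36.3%. Among members whose log2 CPM averaged 1 or more, the largest negative and positive fold changes were in Ndufb4, at -0.55 (adjusted p 0.345), and Ndufaf6, at 0.45 (adjusted p 0.242) (both edgeR quasi-likelihood).

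VitD against Control had a similar size. A median log2 of -0.24 was found for the 40 subunits, 36 of them negative, and of -0.01 for the assembly factors. No member was called by the edgeR quasi-likelihood test, where 8.67% of genes were, and 5 members had unadjusted p under 0.05. DESeq2 called 1 (Ndufa10l1, lower), beside 14.4% of genes, and limma voom called 14 (13 lower), beside 37.5%. With the length trend removed 2 members were called, both lower (Ndufb4 and Ndufs3), beside 13.8% of genes, and 6.31% called lower. Without the replicate-4 libraries of the other 2 groups, 3 were called, all lower (Ndufb11, Ndufb4 and Ndufs3), beside 15.1% in either direction, and with both changes 5 were, all lower, beside 18.7% in either direction. Between VitD and Surgery directly the subunit median was -0.05 and the assembly median 0.05. That comparison gave 0 calls among members and in 0% of genes by edgeR quasi-likelihood, with 0 members at unadjusted p under 0.05, 0 by DESeq2 (beside 0% of genes), and 1 (Ndufa4l2, lower) by limma voom, beside 2.35%.

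pMT without vitamin D was compared with the same Surgery and Control libraries, so these values are not independent of those above. Against Surgery, 38 of 40 subunits were positive with a median log2 of 0.17. The assembly factors had 0.07, ranging from -0.04 without pMT 4 to 0.19 without pMT 3. Without the replicate-4 libraries the subunit median was -0.03, with 14 of 40 positive, and it was -0.02 without pMT 4 alone, so this direction rested on pMT 4. With the length trend removed the median was 0.17 over 15 libraries and 0.12 without the replicate-4 libraries. The edgeR quasi-likelihood test called 0 members, beside 1.94% of genes, with 3 at unadjusted p under 0.05. Ndufaf6, at -0.63 (adjusted p 0.0629) by edgeR quasi-likelihood, was the 1 member called lower by DESeq2 (beside 4.34% of genes), by the exact test (beside 7.1%) and with only the 2 groups in the fit (beside 3.13%). It was also the 1 call without pMT/VitD 2, pMT/VitD 3 or VitD 1, at -0.63 in each, beside 1.79%, 1.9% and 4.33% of genes. Limma voom called 6 (3 lower), beside 37.7%.

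All 4 pMT values of Ndufaf6 were below both Surgery values, and 3 of them were below both Control values. Against Control the subunits as a whole were level in pMT: the median log2 was 0.01, with 22 of 40 positive. Without the replicate-4 libraries it was -0.17, with 4 of 40 positive. No member was called by edgeR quasi-likelihood, DESeq2 or limma voom, beside 0%, 0% and 1.34% of genes in turn, and 0 members had unadjusted p under 0.05 in the first.

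The pMT/VitD group had the highest subunit levels. Against Surgery, 39 of 40 subunits were positive, with a median log2 of 0.49, beside 0.42 for the core subunits and 0.35 for the assembly factors. The edgeR quasi-likelihood test called 0 members, beside 7.44% of genes, although 23 had unadjusted p under 0.05. DESeq2 called 9 of 49, beside 14.5%, and limma voom 44, beside 39.5%, all higher. Leaving out pMT/VitD 4 gave 10 calls (12.8% of genes), pMT 4 gave 5 (9.84%), and pMT/VitD 3 or VitD 1 gave 1 (5.63% and 11.8%). Without both replicate-4 libraries 36 were called, all higher, beside 20.1% of genes in either direction. With the length trend removed, 8 members were called, all higher, beside 10.5% of genes in either direction and 5.13% called higher, and the subunit median was 0.23. With both changes 21 were called, all higher, beside 16.5% in either direction, at a subunit median of 0.29.

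Against Control, all 40 subunits were positive in pMT/VitD with a median log2 of 0.34, which was 0.12 with the length trend removed. By edgeR quasi-likelihood 0 members and 0% of genes were called, with 0 members at unadjusted p under 0.05. DESeq2 called 0, beside 0.00582% (1 gene), and limma voom 26, all higher, beside 10.8%. Without the replicate-4 libraries edgeR quasi-likelihood called 0 members, beside 0.064% of genes, and 36 of 50 had unadjusted p under 0.05. With the length trend removed as well it called 0, beside 0.0466%, and 14 had unadjusted p under 0.05. Against pMT, 38 of 40 subunits were positive with a median of 0.31, which was 0.07 with the length trend removed. Here edgeR quasi-likelihood called 0 members and 0% of genes, with 6 members at unadjusted p under 0.05, DESeq2 called 0 of 44, beside 1.18%, and limma voom called 43, beside 38.5%.

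The difference between pMT/VitD and pMT thus depended on the tool and on the length trend, and it also depended on the 2 libraries that stood apart. Without them the median of the subunits was 0.69, and 40 members were called, all higher (36 subunits and 4 assembly factors), beside 18.3% of genes in either direction. When the length trend was removed as well, the median was 0.16 and 5 subunits were called, all higher, Ndufb11 among them, beside 4% of genes in either direction. Most of the 40 calls were thus absent once the length trend was removed. Among the 6 libraries then compared, vitamin D and the sign of the length trend went together, so their parts cannot be told apart.

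The mitochondrially encoded ND genes, whose products form the membrane core of the same enzyme, were read beside the nuclear subunits. Their summed CPM was 34888 and 38443 in Control, 19573 and 20671 in Surgery, 20503, 22477 and 21658 in VitD, 26853, 23922, 22585 and 57705 in pMT, and 45752, 34875, 42397 and 25181 in pMT/VitD. It was lowest in Surgery and VitD, and pMT 4 stood far above the other pMT libraries. All 7 ND genes had negative fold changes in Surgery against Control, with a median log2 of -0.84, and none was called by edgeR quasi-likelihood, 5 having unadjusted p under 0.05. In the pMT-injected comparison all 7 were positive with a median of 0.69, and 5 were called by edgeR quasi-likelihood, beside 23.3% of genes: 0.91 for ND2 (adjusted p 0.0168), 0.71 for ND3 (adjusted p 0.0484), 0.69 for ND4L (adjusted p 0.00549), 0.74 for ND5 (adjusted p 0.0135) and 0.66 for ND6 (adjusted p 0.0197).

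In ND2, ND4L and ND5 all 8 injected libraries exceeded all 5 without pMT, as in 4.24% of genes tested, and in ND3 and ND6 6 of 8 did. ND4L kept its call in each fit without 1 library, and ND3 in 4 of 15. ND2, ND5 and ND6 lost it without Surgery 1 (0.89, 0.71 and 0.65) or Surgery 2 (0.93, 0.77 and 0.66). ND4L (-0.83, adjusted p 0.0432) and ND5 (-1.01, adjusted p 0.0451) were called lower in VitD against Control by edgeR quasi-likelihood, each in 5 of 15 such fits. ND4L was called higher in pMT/VitD against Surgery (0.84, edgeR quasi-likelihood adjusted p 0.0445), in 6 of 15.

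Assembly factors with other names were read from a list of 12, of which 9 were found by symbol (Coa1, Dmac1 and Dmac2 were not). Ecsit was the most abundant, at mean TPM 69.5. In the pMT-injected comparison 4 of 9 were called higher by edgeR quasi-likelihood, beside 10% of genes, and 0 lower: 0.42 for Foxred1 (adjusted p 0.00358), 0.33 for Ecsit (adjusted p 0.0204), 0.27 for Tmem70 (adjusted p 0.0439) and 0.22 for Tmem186 (adjusted p 0.0433). Foxred1, an oxidoreductase-like factor of late assembly, had CPM of 23.8 and 28.03 in Control, 17.4 and 19.9 in Surgery, 15.2, 19.6 and 19.2 in VitD, 23.3, 26.97, 26.2 and 21.6 in pMT, and 24.5, 23.5, 26.4 and 23.7 in pMT/VitD. All 8 injected libraries exceeded the 5 without pMT, as in 4.24% of genes tested, and its call held in each fit without 1 library. Ecsit lost its call without Surgery 1 or Surgery 2 (0.32 and 0.34), while Tmem70 kept its call in 4 and Tmem186 in 3 of 15 fits. Foxred1 was also called lower in VitD against Control (-0.53, edgeR quasi-likelihood adjusted p 0.029), a call absent without Control 1 (-0.64), Control 2 (-0.40) or VitD 1 (-0.42).

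Of 7 regulators of mitochondrial genes, led in abundance by Tfam at mean TPM 44.1, 2 were called by edgeR quasi-likelihood in the pMT-injected comparison, beside 23.3% of genes, so this count was near the background. Ppargc1a, the coactivator PGC-1 alpha, had CPM of 21.8 and 22.9 in Control, 17.3 and 18.3 in Surgery, 18.6, 19.5 and 20.1 in VitD, 21.2, 26.8, 26.1 and 25.7 in pMT, and 24.7, 24.7, 19.4 and 22.6 in pMT/VitD. Esrra, the nuclear receptor ERR alpha, had CPM of 68.7 and 57.7 in Control, 52.6 and 49.8 in Surgery, 42.1, 49.7 and 53.9 in VitD, 59.3, 62.2, 61.9 and 52.3 in pMT, and 63.6, 74.6, 64.5 and 73.2 in pMT/VitD. Both were above the 5 libraries without pMT in 7 of 8 injected libraries, at 0.36 for Ppargc1a (adjusted p 0.00508) and 0.35 for Esrra (adjusted p 0.00825) by edgeR quasi-likelihood, and Esrra lost its call without Surgery 2 (0.33).

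Markers of other cells also differed between the libraries compared. The summed CPM of 8 macrophage genes, Lyz2 the most abundant, was 229 and 223 in Control, 443 and 441 in Surgery, 593, 446 and 383 in VitD, 234, 246, 256 and 186 in pMT, and 181, 174, 197 and 249 in pMT/VitD. It was high in Surgery and VitD and lowest in pMT 4 and pMT/VitD 1 to 3. In pMT 2, pMT 3 and pMT/VitD 4 it lay near Control. The subunit levels of these 3 libraries were as low as in Surgery and VitD, but above each Surgery and VitD library once the length trend was removed. All 8 were called lower by edgeR quasi-likelihood in the pMT-injected comparison, beside 13.3% of genes, with a median log2 of -1.07. Of the 5 fibroblast genes Dcn had the highest mean TPM and Col3a1 the highest CPM. They summed to 2438 and 2467 in Control, 4214 and 4239 in Surgery, 6653, 4345 and 3552 in VitD, 2492, 2681, 2825 and 2385 in pMT, and 1979, 1799, 2155 and 2634 in pMT/VitD CPM, with the highest values in VitD and Surgery. Dcn did not follow this sum: its CPM was 683 and 768 in Control and 627 and 657 in Surgery, and it was highest in pMT 1 at 827. By edgeR quasi-likelihood 3 of 5 (Col1a1, Lum and Col3a1) were called lower in the pMT-injected comparison. The 9 muscle fibre genes summed to 183146 and 168325 in Control, 145809 and 142295 in Surgery, 107660.0, 141486 and 152730.0 in VitD, 148380.0, 151859, 154241 and 161027 in pMT, and 184056, 192539, 196769 and 172737 in pMT/VitD CPM. The sum, of which Acta1 was the largest part, was lowest in VitD 1 and highest in pMT/VitD 1 to 3, but its genes did not all follow it: Mb was highest in VitD 1, and Myh1 and Myh2 were lower in pMT/VitD 1 and 2 than in VitD 1. By edgeR quasi-likelihood 1 of 9 (Myh4) was called higher. In the same test, beside 23.3% of genes, Kdr was called higher and Pecam1 lower of 3 endothelial genes, and Cd3g lower of 4 B and T cell genes. Of 4 Schwann cell genes 0 were called. No gene on these lists was at 0 in all libraries, and the part of cell composition in the subunit differences was not tested.

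Fibre type markers gave a further contrast between libraries. The 6 slow-fibre genes summed to 4136 and 4122 in Control, 5141 and 5051 in Surgery, 4309.7, 5084 and 5288 in VitD, 3909.7, 4373, 4742 and 7141 in pMT, and 7060.0, 6421, 4252 and 4303 in pMT/VitD CPM, highest in pMT 4 and pMT/VitD 1 and 2, which were also the 3 highest libraries for subunits. Myh7 did not follow this sum: its CPM was 2175 in pMT/VitD 2, below 2206 in Surgery 1, 2303 in VitD 3 and 2331 in pMT 3. None of the 6 slow-fibre genes was called by edgeR quasi-likelihood in the pMT-injected comparison. The 5 adipocyte genes summed to 182 and 192 in Control, 261 and 269 in Surgery, 437, 281 and 219 in VitD, 262, 246, 231 and 405 in pMT, and 383, 328, 231 and 171 in pMT/VitD CPM, with no clear order by group and none called in that test. The part of fibre type in the subunit levels was not tested.

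Promoters were read for what the members share apart from their name. The RefSeq promoter table for build GRCr8 (250 bases before to 50 after each gene's start, first listed window of each gene) held 43 of the 51 members; Ndufa10l1, Ndufa8, Ndufaf6, Ndufb9 and the 3 symbols ending in -ps1 were among those not matched. Each motif was searched on both strands; CCGGAAG and AAGATGGC can overlap in AAG. AAGATGGC, letters bound by YY1, was in 9 of 43 member promoters (20.9%) and in 3.44% of all 27457 promoters. CCGGAAG, letters of the GABP and ETS factors, was in 8 (18.6%) and in 9.22% of all. CGCATGCG, letters of NRF1, was in 3 (6.98%: Ndufa11, Ndufaf4 and Ndufaf5) and in 1.81% of all, and TCAAGGTCA, letters of ERR alpha, was in 0 and in 0.412% of all. These matches describe letters in the window, not binding.

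The 9 windows with AAGATGGC, all of subunits, had it on the strand of the gene and near or after the start, between window bases 250 and 277. Among the 945 promoters of any gene with these letters, 354 (37.5%) had them on the gene's strand from base 250 on, a stretch chosen after the member matches had been seen. The 9 matches are shown with their flanks because they line up in this way, with the motif in capitals:
Ndufa2 (chr18:28631841-28631868, minus strand, GRCr8): tttgctagcaAAGATGGCggccgcaagc
Ndufa3 (chr1:74515525-74515552, minus strand, GRCr8): gtccaagaccAAGATGGCtgctagtaag
Ndufa4l2 (chr7:65242158-65242185, plus strand, GRCr8): acactggaacAAGATGGCaggaaccagt
Ndufa6 (chr7:115750285-115750312, minus strand, GRCr8): cttccttagcAAGATGGCggccgcggcc
Ndufa9 (chr4:161374143-161374170, minus strand, GRCr8): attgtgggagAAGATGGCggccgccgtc
Ndufb8 (chr1:253362898-253362925, minus strand, GRCr8): ggagaaggtgAAGATGGCggcgtcccgg
Ndufs4 (chr2:47794893-47794920, minus strand, GRCr8): tgcccacaggAAGATGGCggcggtctca
Ndufs6 (chr1:31797413-31797440, plus strand, GRCr8): ggtcgtcggcAAGATGGCggcggcgctg
Ndufs7 (chr7:10110477-10110504, minus strand, GRCr8): ggccgaggccAAGATGGCggcgctggcg

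The windows of 3 members called higher in the pMT-injected comparison and holding a motif are printed whole, with AAGATGGC (Ndufs7) or CCGGAAG (Ndufs8 and Ndufaf1), on either strand, in capitals:
Ndufs7 (chr7:10110449-10110748, minus strand, GRCr8): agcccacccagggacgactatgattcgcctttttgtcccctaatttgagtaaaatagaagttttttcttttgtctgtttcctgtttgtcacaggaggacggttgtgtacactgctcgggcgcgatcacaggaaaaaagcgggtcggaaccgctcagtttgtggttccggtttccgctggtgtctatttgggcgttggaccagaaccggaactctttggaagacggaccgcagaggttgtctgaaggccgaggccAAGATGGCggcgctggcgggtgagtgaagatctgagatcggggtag
Ndufs8 (chr1:210573649-210573948, minus strand, GRCr8): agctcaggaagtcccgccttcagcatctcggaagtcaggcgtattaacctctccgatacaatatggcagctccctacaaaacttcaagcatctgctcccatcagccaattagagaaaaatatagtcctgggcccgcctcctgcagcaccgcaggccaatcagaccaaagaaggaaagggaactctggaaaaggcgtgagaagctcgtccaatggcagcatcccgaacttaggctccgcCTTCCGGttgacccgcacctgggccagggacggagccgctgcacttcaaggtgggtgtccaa
Ndufaf1 (chr3:127103971-127104270, minus strand, GRCr8): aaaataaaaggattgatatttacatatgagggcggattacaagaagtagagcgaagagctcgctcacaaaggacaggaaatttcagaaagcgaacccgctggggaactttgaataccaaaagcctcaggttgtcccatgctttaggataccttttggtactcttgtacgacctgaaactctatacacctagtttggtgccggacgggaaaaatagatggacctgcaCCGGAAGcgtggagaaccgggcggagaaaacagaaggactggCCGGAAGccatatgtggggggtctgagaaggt

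At least 1 of the 4 motifs was in 18 of 43 member promoters (41.9%) and in 13.7% of all. Of the 12 members called in the pMT-injected comparison, 9 had a window, and 3 of these held a motif.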

How the data were processed

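RNA-seq libraries of 15 rat muscle samples were used. Per the labels and the paper's methods, the authors used Trimmomatic 0.38 for trimming, HISAT2 2.1.0 for alignment to the rat genome (rn6) and StringTie 2.1.3b with RefSeq genes for counting. The authors deposited raw counts, which were used for all tests. The TPM values deposited by the authors were used to compare levels between genes. Relative gene length was the mean count over the mean TPM, divided by its median over tested genes. The FPKM values deposited by the authors were left out, since they hold the same reads. Strand and multi-mapping settings are not given in the sources used here.

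Counts were tested in R 4.3.3 with edgeR 4.0.16 (TMM, filterByExpr, robust quasi-likelihood F-test, 1 model for 5 groups, Benjamini-Hochberg over 17201 genes, called at 0.05); DESeq2 1.42.0, limma 3.58.1 (voom with quality weights), the edgeR exact test, RLE or library-size scaling, other count filters, fits of only the groups compared and leaving out libraries were alternatives. Log2 CPM used a prior count of 2. The length trend was a lowess curve (span 0.3) for each library, entered as an offset. Named members were core subunits, all Ndufaf genes, called members (or, where none was called, the largest rise and fall), the extremes in TPM and in spread, and known pairs; of other lists, called genes and the most abundant gene. Members and lists were chosen with earlier results of these data known. Members not named are counted in the totals, and 1 gene that this rule would name is not reported here. The pipeline was tested on simulated data.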

Additional observations from a re-analysis of the deposited data

Results flagged for a closer look

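Among 98 groups of values tested for a library far from the others of its group, 8 held one; with no real difference, about 1 in 20 groups would. That rate is only a loose guide here. The groups share libraries and genes that move together, and some genes were chosen for their spread. In pMT 4, the summed CPM of the ND genes was 57705 (22585 to 26853 in pMT 1 to 3), and 22.6% of counts came from the 13 mitochondrial protein genes (11.1% to 12.9% in the others). In the same library ND2 CPM was 19394 and ND5 CPM was 5177, far above the other pMT libraries.

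In pMT/VitD 4, Ndufa12 CPM was 68.5, Ndufs7 CPM was 198 and Ndufs8 CPM was 144, each below the other pMT/VitD libraries (108 to 114, 260 to 270 and 196 to 202). These 2 libraries are the ones that stood apart from their groups. In pMT/VitD 3, Ndufaf1 CPM was 10.7, below the 14.9 to 15.2 of the others. The cause of these differences was not tested.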

How the results depend on the processing

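With 2 to 4 libraries a group, members with small differences could go uncalled. Over 15 fits leaving out 1 library, the subunit medians ranged from -0.20 to -0.14 (Surgery against Control), -0.19 to 0.12 (pMT against Control), 0.25 to 0.47 (pMT/VitD against Control), -0.24 to -0.19 (VitD against Control), -0.02 to 0.28 (pMT against Surgery), 0.41 to 0.63 (pMT/VitD against Surgery), -0.07 to -0.03 (VitD against Surgery), 0.20 to 0.54 (pMT/VitD against pMT) and 0.24 to 0.41 (pMT-injected). Assembly medians held both signs in pMT against Surgery (-0.04 to 0.19), pMT against Control (-0.12 to 0.01), VitD against Control (-0.11 to 0.05) and VitD against Surgery (-0.02 to 0.11). Members called ranged from 0 to 1 in pMT against Surgery, 0 to 10 in pMT/VitD against Surgery and 1 to 25 in the pMT-injected comparison, and stayed at 0 elsewhere. RLE scaling and both other count filters moved no count of called members by over 1.5 times.

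Scaling by library size alone moved the median of all genes by 0.25 in Surgery and 0.27 in VitD against Control, 0.13 in pMT against Control, -0.12 in pMT and -0.33 in pMT/VitD against Surgery, -0.21 between pMT/VitD and pMT, and -0.23 in the pMT-injected comparison. Subunit medians became 0.08 in Surgery and 0.048 in VitD against Control, -0.0040 in pMT and 0.15 in pMT/VitD against Surgery, and assembly medians turned to 0.16, 0.062 and 0.28 in Surgery, pMT and VitD against Control, -0.093 in pMT against Surgery and -0.039 in the pMT-injected comparison. Under it Ndufs1 in pMT/VitD against Control was -0.034, and in the pMT-injected comparison, where 2 members were called, signs turned for Ndufv1 -0.051, Ndufs1 -0.10, Ndufaf4 -0.039, Ndufaf5 -0.17, Ndufaf7 -0.18, Ndufa10 -0.014, Ndufa10l1 -0.012, Ndufa4l2 -0.23 and Tmem186 -0.019. The turns in the pMT-injected comparison were of fold changes no larger than about that shift of all genes, so they are not particular to these genes. Ndufs1 in pMT/VitD against Control was -0.0094 without Control 1 and -0.012 without pMT/VitD 2 (highest 0.064, without pMT/VitD 3). Ndufa4l2 in the pMT-injected comparison was -0.013 without the 2 replicate-4 libraries, -0.050 with the length trend removed, -0.067 with both, -0.025 without Surgery 2, -0.021 without pMT 4 and -0.020 without VitD 2 (highest 0.098, without VitD 1). The cause was not tested.

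Members called moved as follows. In Surgery against Control: 7 by limma voom, 17 with only the groups compared, 19 by the exact test. In pMT/VitD against Control: 26 by limma voom. In VitD against Control: 1 by DESeq2, 14 by limma voom, 3 without the replicate-4 libraries, 2 with the length trend removed, 5 with both. In pMT against Surgery: 6 by limma voom, 1 by DESeq2, the exact test or only the groups compared. In pMT/VitD against Surgery: 9 by DESeq2, 44 by limma voom, 36 without the replicate-4 libraries, 8 with the length trend removed, 21 with both. In VitD against Surgery: 1 by limma voom. In pMT/VitD against pMT: 43 by limma voom (subunit median 0.67), 40 without the replicate-4 libraries (0.69), 5 with the length trend removed too. In the pMT-injected comparison: 45 by limma voom, 34 without the replicate-4 libraries, 28 with the length trend removed, 30 with both. The cause was not tested.

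The replicate numbers did not pair the libraries: correlations of same-numbered libraries across groups had a median of 0.01 (-0.50 to 0.17), with 2 of 24 over 0.1. With the number as a replicate block, 1 member was called in the pMT-injected comparison, beside 14% of genes, and 0 in the others.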
